A study of Mus musculus with 8 samples.

Results

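Type I interferons are secreted when a cell senses foreign or misplaced nucleic acid, and they are received by a receptor made of IFNAR1 and IFNAR2. The receptor's kinases activate STAT2, which joins IRF9 in a complex that binds short promoter elements of interferon-stimulated genes. Their products block viral entry, translation and genome copying, and in skin they are known from viral defence, wound repair and autoimmune disease. The 37 genes described here were listed by name from this pathway, and no threshold on a measured value was applied. Earlier results of these data were known when they were chosen. They are sensors, receptor and transcription factors, antiviral effectors, the OAS family, ISG15 with protein modifiers, and guanylate-binding proteins. All 37 matched 1 row each among 34070 Ensembl identifiers, and 33 passed the filter on low counts.

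The libraries were made from suspensions of epidermal cells of adult mice, 18 to 25 weeks old, killed 4 h into the light phase (ZT4). The 4 Bmal1cKO libraries come from K14-Cre;Bmal1flox/flox mice and the 4 Bmal1WT libraries from K14-Cre;Bmal1wt/wt mice, so both groups carry Cre. The deleted part of Bmal1 is not named in the labels. K14-Cre acts in keratin 14-expressing keratinocytes and their progeny, and other cells of the suspension, such as Langerhans cells and T cells, do not descend from them. Libraries held 35685261 to 50396156 counts, and values are counts-per-million (CPM) on scaled library sizes. Bmal1 itself (listed as Arntl) was at 42 to 49.1 CPM in Bmal1WT and 30.7 to 37.6 CPM in Bmal1cKO, without overlap. Its adjusted p by edgeR was 0.0611, 0.0358 with the replicate number as a block and 0.0342 with sex as a covariate. DESeq2 gave 8.9e-05 and limma voom 0.0663, and the highest value of the alternatives was 0.693 (edgeR, female libraries alone). By Xist and Y-linked genes, replicates 1 and 3 of both groups were female and replicates 2 and 4 male. Keratinocyte markers summed to 24800 to 36300 CPM in each library. In bulk libraries, fewer cells of a type and less RNA per cell cannot be told apart.

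A common promoter element of the pathway is the interferon-stimulated response element, whose core was searched as GAAANNGAAA on both strands, where overlapping matches count separately. RefSeq promoters on GRCm38.p6, 250 bases before to 50 after a transcript start, were matched to 28 of the members. Of these, 13 (46.4%) held the core, against 3.99% of the 27025 genes with a window. The stretches below, shown because these genes' values are described next, have the core in capitals and 10 flanking bases. The first 5 belong to effectors that were at least 2.73 times the median of the other 7 libraries in 1 library, Bmal1WT replicate 2, and the last 2 to members at 1.31 and 1.23 times it. Each is printed on the strand that carries the core: chr19:34640794-34640823 (minus) for Ifit1, chr5:120777715-120777744 (minus) for Oas3, chr5:120907520-120907549 (minus) for Oas1a, chr12:26456553-26456582 (plus) for Rsad2, chr4:156200871-156200900 (minus) for Isg15, chr10:128270266-128270295 (minus) for Stat2 and chr17:78882535-78882564 (minus) for Eif2ak2.
Ifit1: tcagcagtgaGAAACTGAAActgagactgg
Oas3: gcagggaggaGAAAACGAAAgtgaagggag
Oas1a: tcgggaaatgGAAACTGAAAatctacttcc
Rsad2: tctgttttctGAAAATGAAAgttggaccag
Isg15: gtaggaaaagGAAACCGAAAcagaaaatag
Stat2: ctagggaaagGAAACTGAAAccagggtgcg
Eif2ak2: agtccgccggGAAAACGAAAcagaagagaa

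Of the 33 members tested, edgeR's quasi-likelihood test called 0 at an adjusted p under 0.05, where 0.173% of the 19646 genes tested were called. DESeq2 (1.18% of genes called) and limma voom (0.148%) called 0 members as well. At an unadjusted p under 0.05 there were 2 members, 1 higher and 1 lower, against 8.3% of all genes. None of the 33 had groups without overlap, against 5.15% of all genes. The log2 fold change, Bmal1cKO over Bmal1WT, was negative in 29 of 33 members with a median of -0.17. Over all genes it was negative in 53.0%, with a median of -0.01. Without Bmal1WT replicate 2, the fold change was negative in 20 of 33 members (50.7% of all genes) with a median of -0.05. That library held the highest value of most members, so leaving it out raises their fold changes by construction. Without Bmal1WT replicate 1, 29 of 33 members were negative (52.9% of all genes), with a median of -0.23.

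Bmal1WT replicate 2 held the highest of the 8 values in 25 of the 33 members (75.8%), against 17.8% of all genes tested. Its value was at least 2-fold the median of the other 7 libraries in 14 members (42.4%), and in 1.08% of all genes. The next highest library by the median deviation of the members was Bmal1WT replicate 3, at 0.13 on the log2 scale above each gene's mean, against 0.36 for Bmal1WT replicate 2. Bmal1cKO replicate 2 followed at 0.12 and held the highest value of its own group in 19 members. Bmal1WT replicate 1 was the lowest library, at -0.19, with the lowest of the 8 values in 11 members.

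**Figure D1:**
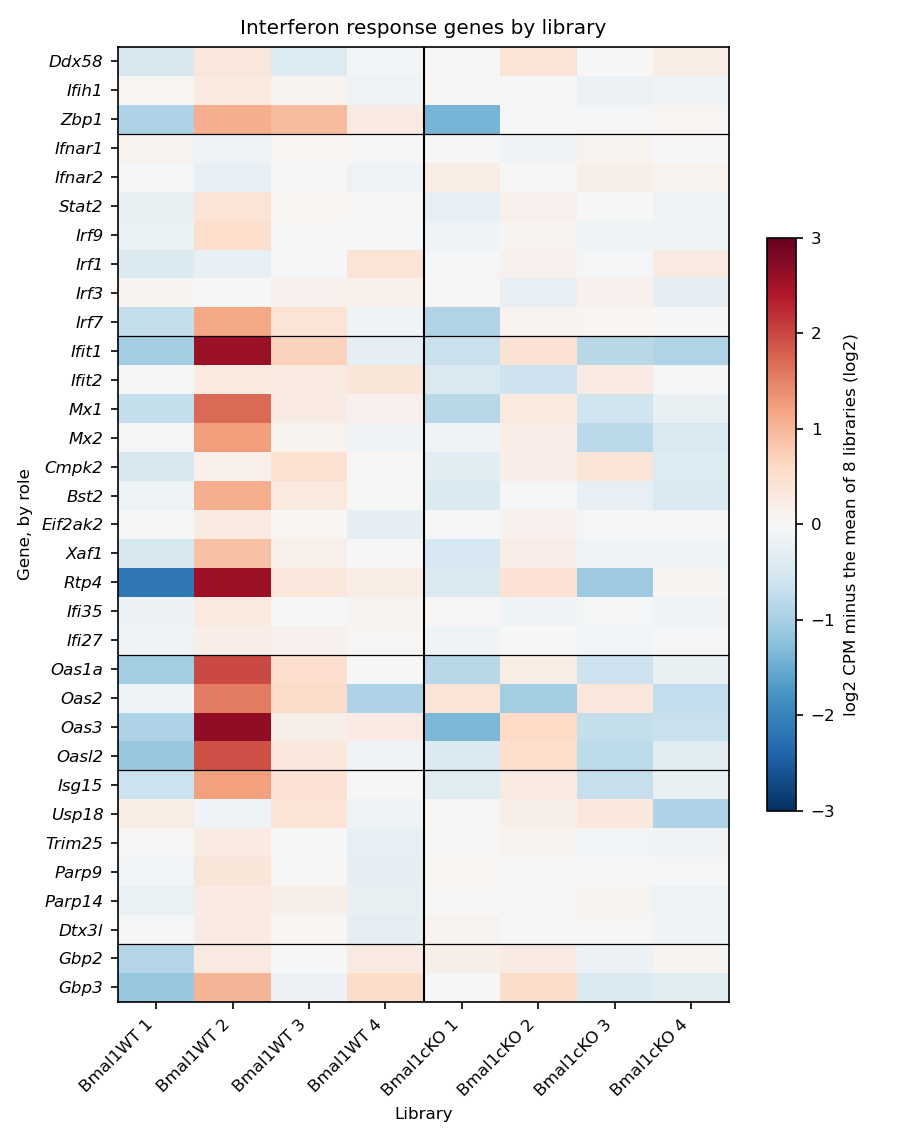
Log2 CPM of the 33 tested members in each of the 8 libraries, minus the gene's mean over the libraries (colour, log2 units); rows are grouped by role and the vertical line parts the genotypes. The column of Bmal1WT replicate 2 is the darkest red one, above all in Ifit1, Rtp4, Mx1, Mx2 and the OAS genes, and rows such as Ifnar1, Irf3 and Trim25 are pale throughout.

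**Figure D2:**
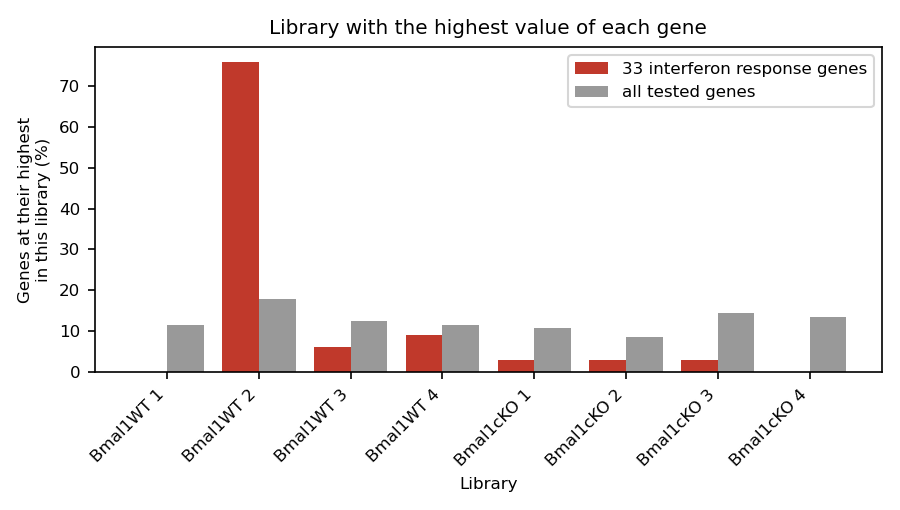
Share of genes (%) whose highest value lies in the library on the x axis, for the 33 tested members (red) and all 19646 tested genes (grey). The members' share in Bmal1WT replicate 2 is 75.8%, against 17.8% of all genes.

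The IFIT proteins bind viral RNA ends. Ifit1 (ENSMUSG00000034459, GRCm38 chromosome 19, 34640871 to 34650009, plus strand) was at 0.348, 4.21, 1.14 and 0.573 CPM in Bmal1WT replicates 1 to 4. In Bmal1cKO replicates 1 to 4 it was at 0.44, 0.953, 0.393 and 0.373 CPM. A single Bmal1WT library was high, at 9.57 times the median of the other 7, and the groups overlapped. The means were 1.57 ± 1.79 and 0.539 ± 0.277 CPM (SD, n = 4), and the log2 fold change was -1.52 ± 0.73 (SE; adjusted p = 0.629, edgeR). Without Bmal1WT replicate 2 the Ifit1 fold change was -0.36 ± 0.47 (adjusted p = 0.9, edgeR). Its neighbour Ifit2 lay within 0.232 to 0.463 CPM in all libraries. Ifit3, too low for the filter, was at 0.0804, 0.282, 0.237 and 0.0441 CPM in Bmal1WT, and in Bmal1cKO at 0.0259, 0.232, 0.14 and 0.0532 CPM.

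The dynamin-like GTPases MX1 and MX2 trap incoming viruses. Mx1 was at 3.03 CPM in Bmal1WT replicate 2 and between 0.517 and 1.13 CPM in the other 7 libraries. Mx2 was at 1.69, 4.21, 1.91 and 1.65 CPM in Bmal1WT replicates 1 to 4, and in Bmal1cKO at 1.63, 2.03, 1.01 and 1.3 CPM. In both genes that library was the highest and replicate 2 the highest of Bmal1cKO. Their log2 fold changes were -0.89 ± 0.49 and -0.66 ± 0.34 (adjusted p = 0.701 and 0.669, edgeR), and -0.22 for both without that library. Rtp4, which encodes an interferon-induced receptor chaperone, had the widest tested range. It was at 0.188, 4.95, 1.05 and 0.97 CPM in Bmal1WT replicates 1 to 4 and at 0.621, 1.13, 0.393 and 0.878 CPM in Bmal1cKO. The lowest and the highest Rtp4 value were both in Bmal1WT, and the fold change of -1.23 ± 0.77 became 0.03 ± 0.54 without replicate 2.

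Rsad2, the gene of the antiviral radical enzyme viperin, and Ifi44 were too low for the test. Ifi44 was at 0.0268, 2.38, 0.355 and 0.11 CPM in Bmal1WT, and in Bmal1cKO at 0.0517, 0.335, 0.0281 and 0.0798 CPM. The highest value, from 93 counts in Bmal1WT replicate 2, was 29.9 times the median of the other libraries. Rsad2 was at 1.13 CPM (44 counts) there and at 0.0441 to 0.335 CPM elsewhere. Cmpk2, the neighbour of Rsad2 and a nucleotide kinase gene, did not follow it: Bmal1WT replicate 3 was highest at 3.27 CPM and replicate 2 stood at 2.64 CPM.

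Bst2, the gene of tetherin, which holds budding virions at the cell surface, had the smallest p of the members. It lies on chromosome 8 (71534255 to 71537456, minus strand) and was at 3.43, 8.13, 4.67 and 3.84 CPM in Bmal1WT, and in Bmal1cKO at 2.84, 3.66, 3.26 and 2.79 CPM. The 2 groups overlapped only through Bmal1cKO replicate 2 and Bmal1WT replicate 1. The means were 5.02 ± 2.14 and 3.14 ± 0.403 CPM (SD, n = 4), and the log2 fold change was -0.68 ± 0.26 (SE; edgeR unadjusted p = 0.0274, adjusted p = 0.52). Without Bmal1WT replicate 2 it was -0.34 ± 0.16 (adjusted p = 0.673, edgeR). The effector Xaf1, a gene with a role in cell death, was at 13.3 CPM in Bmal1WT replicate 2 and 5.12 to 8.34 CPM elsewhere (-0.33 ± 0.26).

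Ifi27, Eif2ak2 and Ifi35 varied less between libraries. Ifi27, a gene of a small mitochondrial membrane protein, was at 62, 76.8, 73.3 and 68.8 CPM in Bmal1WT, and in Bmal1cKO at 60.9, 66.7, 63.5 and 63.7 CPM. The means were 70.2 ± 6.36 and 63.7 ± 2.37 CPM (SD, n = 4), and the groups overlapped. Its level per length was the highest of all members, at 45.7 CPM per kb of exon. The kinase gene Eif2ak2 (PKR), which stops translation on double-stranded RNA, was at 27.4, 33.9, 29.6 and 23 CPM in Bmal1WT, and in Bmal1cKO at 27.7, 30.8, 27.6 and 27.3 CPM. Its log2 difference was -0.01 with a 95% interval of -0.25 to 0.23. Ifi35 was at 16 ± 2.21 and 14.8 ± 0.826 CPM.

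The OAS enzymes sense double-stranded RNA and activate RNase L. Oas3 (chromosome 5, 120753098 to 120777661, minus strand) was at 0.804, 9.59, 1.72 and 1.79 CPM in Bmal1WT, and in Bmal1cKO at 0.595, 2.29, 0.926 and 0.958 CPM. Replicate 2 was the highest of its group in both genotypes. Oas3 had the largest tested fold change of the members, -1.53 ± 0.74 on the log2 scale (adjusted p = 0.635, edgeR), with a 95% interval of -3.2 to 0.14. Without Bmal1WT replicate 2 it was -0.27 ± 0.46.

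Oasl2, an OAS-like gene, was at 2.44, 20.3, 6.61 and 4.98 CPM in Bmal1WT, and in Bmal1cKO at 3.98, 7.7, 3.09 and 4.31 CPM, and its log2 difference was -0.84 ± 0.57 (adjusted p = 0.77, edgeR). Without the high library the fold change of Oasl2 was 0.03 ± 0.38. Oas1a was at 13.8 CPM in Bmal1WT replicate 2 and 1.71 to 4.99 CPM elsewhere (-1.07 ± 0.55, adjusted p = 0.657, edgeR), and Oas2 at 4.08 CPM against 0.67 to 2.07 CPM (-0.69 ± 0.52). All 4 tested OAS members were highest in Bmal1WT replicate 2. Oasl1, with 17 counts in all, was at 0, 0.256, 0.0394 and 0.0221 CPM in Bmal1WT, and in Bmal1cKO at 0.0259, 0.0515, 0.0281 and 0 CPM. It had 10 of these counts in that library and 0 in Bmal1WT replicate 1 and Bmal1cKO replicate 4, where 3 counts would be 0.0804 and 0.0798 CPM. Reads that match several places appear to be counted at each, since mt-Atp6 and its nuclear copy Gm10925 held 1841065 and 1841086 counts, so values of close paralogs such as the OAS, IFIT, MX and GBP genes are uncertain.

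ISG15 is a ubiquitin-like protein that is joined to other proteins, and USP18 removes it and also dampens the receptor. Isg15 (chromosome 4, 156199424 to 156200818, minus strand) was at 1.58, 5.82, 3.35 and 2.45 CPM in Bmal1WT, and in Bmal1cKO at 1.94, 2.96, 1.54 and 2.13 CPM. Again 1 Bmal1WT library was high, and the log2 fold change was -0.62 ± 0.37 (adjusted p = 0.725, edgeR), or -0.2 ± 0.29 without it. Usp18 did not share the pattern: it was at 19.3, 15.4, 21.9 and 14.9 CPM in Bmal1WT, and in Bmal1cKO at 16.9, 18.6, 20.7 and 8.7 CPM. Its highest value lay in Bmal1WT replicate 3 and its lowest in Bmal1cKO replicate 4, and the fold change was -0.14 ± 0.24 (adjusted p = 0.936, edgeR).

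Trim25, the ubiquitin ligase gene of the RIG-I pathway, was at 60.1, 69.2, 57.7 and 49.3 CPM in Bmal1WT, and in Bmal1cKO at 60, 62.8, 55.2 and 54.1 CPM. Its log2 difference was -0.03 with a 95% interval of -0.24 to 0.19. The ADP-ribosyltransferase genes Parp9 and Parp14 and the ligase gene Dtx3l, partner of PARP9, lie on chromosome 16. Their log2 fold changes were -0.02, -0.02 and -0.01, with 95% intervals that stayed within -0.29 to 0.25. Trim25 and these 3 genes were also highest in Bmal1WT replicate 2, at 1.18 to 1.3 times the median of the other 7 libraries. Parp9 and Dtx3l overlap on opposite strands by 458 exonic bases, so their counts are uncertain where strand was not used.

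**Figure D3:**
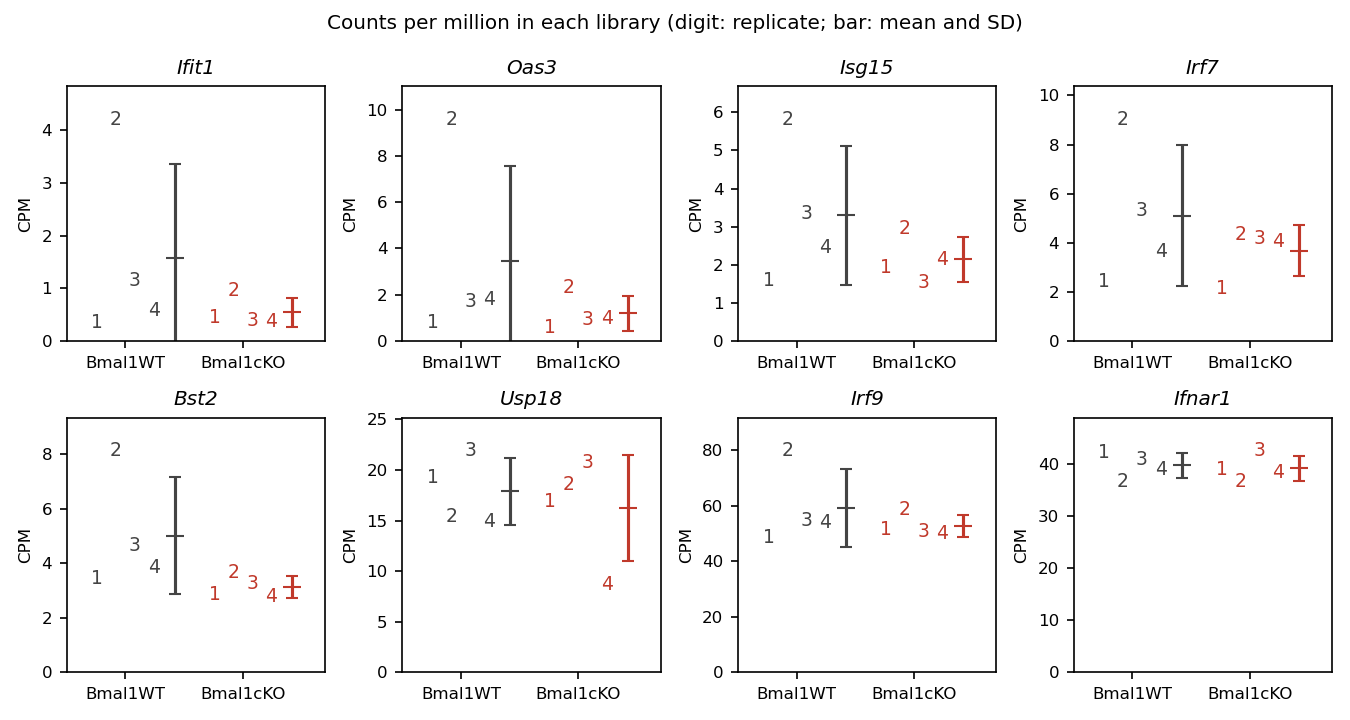
CPM of 8 members in each library (y axis from 0, linear); digits give the replicate number, and the bar beside them the mean and SD of the 4 libraries, cut at 0 where it reaches below. In Ifit1, Oas3, Isg15, Irf7, Bst2 and Irf9 the digit 2 of Bmal1WT stands highest, and in Usp18 and Ifnar1 it does not.

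Irf7, the transcription factor that amplifies interferon production, lies on chromosome 7 (141262706 to 141266481, minus strand), as Bmal1 does (113207465 to 113314126). It was at 2.44, 9.03, 5.3 and 3.66 CPM in Bmal1WT, and in Bmal1cKO at 2.15, 4.35, 4.18 and 4.04 CPM. Its log2 fold change was -0.47 ± 0.38 (adjusted p = 0.822, edgeR), and -0.05 ± 0.31 without Bmal1WT replicate 2. Irf7 shares 45 exonic bases with Phrf1 on the other strand, which had 19951 counts against its 1431.

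Irf9 and Stat2, genes of the interferon-activated complex, were also highest in Bmal1WT replicate 2. Irf9 was at 48.5, 79.8, 54.6 and 54.1 CPM in Bmal1WT, and in Bmal1cKO at 51.6, 58.6, 50.8 and 49.9 CPM. Stat2 was at 32.9, 50.6, 40 and 38.6 CPM in Bmal1WT, and in Bmal1cKO at 32.6, 41.9, 38.6 and 34.7 CPM. Without that library the groups overlapped still, and the log2 fold changes of -0.17 and -0.13 became 0.02 and 0 without it. Irf9 shares 123 exonic bases with Rnf31 on the same strand.

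The 2 receptor genes, Irf1 and Irf3 did not have their highest value in that library. Ifnar1 was at 42.2, 36.7, 40.8 and 39 CPM in Bmal1WT, and in Bmal1cKO at 38.9, 36.6, 42.5 and 38.4 CPM. The log2 difference of Ifnar1 was -0.02 ± 0.06 with a 95% interval of -0.17 to 0.12. Ifnar2 (chromosome 16, 91372783 to 91405589, plus strand) was at 5.65, 4.97, 5.86 and 5.32 CPM in Bmal1WT, and in Bmal1cKO at 6.9, 5.85, 6.62 and 6.31 CPM. Bmal1cKO values were the higher ones except that Bmal1cKO replicate 2 lay just under Bmal1WT replicate 3, and Bmal1WT replicate 2 was the lowest of all. The Ifnar2 fold change was 0.24 ± 0.1 (edgeR unadjusted p = 0.0373, adjusted p = 0.56), and its exons share 315 bases with Gm21970 on the same strand. Irf3, the gene of a latent factor that nucleic acid sensors activate, was at 54.9, 52.1, 56.8 and 57.8 CPM in Bmal1WT. In Bmal1cKO it was at 53.5, 43.9, 56.7 and 42.9 CPM. The 2 low Irf3 values were those of the male Bmal1cKO libraries, and its log2 fold change was -0.17 ± 0.09 (adjusted p = 0.701, edgeR). Irf3 shares 88 exonic bases with Bcl2l12 on the other strand. Irf1, a factor of the interferon gamma response, was highest in Bmal1WT replicate 4 at 30.2 CPM and lay between 16.9 and 27.2 CPM in the others.

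Of the sensors, Ddx58 (RIG-I, now Rigi), which recognises viral RNA ends, was at 13.8, 24.3, 14.4 and 18 CPM in Bmal1WT, and in Bmal1cKO at 19, 25.5, 19.5 and 22.4 CPM. The Ddx58 groups overlapped: Bmal1cKO was at 19 to 25.5 CPM, Bmal1WT replicate 2 lay within that range, and the other Bmal1WT libraries were at 13.8 to 18 CPM. The log2 fold change was 0.29 ± 0.18 (adjusted p = 0.737, edgeR) with all libraries, and 0.49 ± 0.13 (adjusted p = 0.413, edgeR) without Bmal1WT replicate 2. Ifih1 (MDA5), the sensor of long double-stranded RNA, was at 35.9, 42.2, 37 and 30.8 CPM in Bmal1WT, and in Bmal1cKO at 35, 33.7, 30.3 and 31.3 CPM (log2 fold change -0.16 ± 0.09). The Ifih1 groups overlapped. Zbp1, a sensor of Z-form nucleic acid that can start necroptosis, was at 0.322, 1.31, 1.18 and 0.728 CPM in Bmal1WT, and in Bmal1cKO at 0.233, 0.618, 0.589 and 0.639 CPM (-0.77 ± 0.44). Replicate 1 was the lowest library of Zbp1 in both groups.

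The guanylate-binding proteins act against intracellular pathogens. Gbp2 was at 8.12, 18, 14.6 and 17.9 CPM in Bmal1WT, and in Bmal1cKO at 16.8, 17.6, 13.2 and 15.6 CPM, where the lowest value was that of Bmal1WT replicate 1 (0.11 ± 0.22). Gbp3 was at 0.375, 1.67, 0.73 and 1.21 CPM in Bmal1WT, and in Bmal1cKO at 0.827, 1.21, 0.617 and 0.639 CPM (-0.27 ± 0.42).

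**Figure D4:**
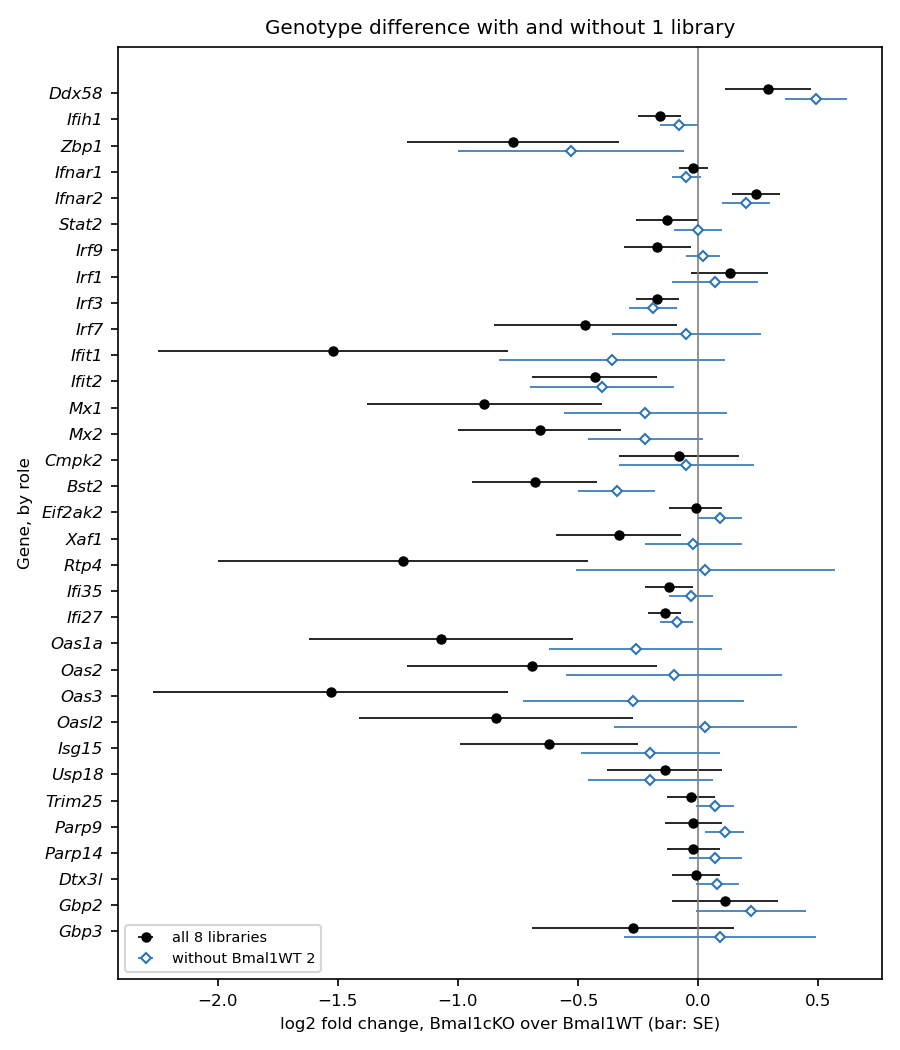
Log2 fold change, Bmal1cKO over Bmal1WT, of the 33 tested members with its SE, in the fit of all 8 libraries (black circles) and without Bmal1WT replicate 2 (open diamonds). Circles reach to -1.53 (Oas3), and without that library the lowest value is -0.53 (Zbp1).

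The members differed widely in their spread between libraries. The coefficient of variation within Bmal1WT ran from 4.58% for Irf3 and 5.91% for Ifnar1 to 118% for Oas3 and 120% for Rtp4, and within Bmal1cKO from 3.17% for Parp9 to 63% for Oas3. Among the members with a promoter window, the ratio of Bmal1WT replicate 2 to the median of the others was 1.16 to 10 (median 2.37) in the 13 with the response element core. In the 15 without it the ratio was 0.849 to 29.9 (median 1.25), and the highest of these were Ifi44, Oasl1 (9.92) and Oasl2 (4.71). That library was singled out for its high values in the members, and the difference between these sets was not tested. Members without a window are in neither set.

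Samples with the same replicate number, which are also of the same sex, deviated together across genes, so differences were also read within numbers. Bmal1cKO was lower than Bmal1WT in 28 of 33 members for replicate 2 (median log2 difference -0.42), in 29 for replicate 3 (-0.14) and in 23 for replicate 4 (-0.15). For replicate 1 it was higher in 18 of 33 (median 0.09). With the replicate number as a block, edgeR called 0 members (0.774% of all genes), and 10 members had an unadjusted p under 0.05, 8 lower and 2 higher, against 11.5% of all genes. The 8 lower ones all had their highest value in Bmal1WT replicate 2, which the blocked fit includes. No blocked fit without that library was run, so this count cannot be told apart from it. The smallest blocked adjusted p was that of Oas3, 0.123. With sex as a covariate 0 members were called (0.606% of all genes). The median fold change of the members was -0.04 in female libraries alone and -0.31 in male ones. Bmal1WT replicate 2 is in the male fit only, so this contrast cannot be told apart from that library. The interaction of genotype with sex was called in 0 members (0.00509% of all genes). Between the sexes 0 members were called (1.84% of all genes).

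Other genes of the pathway were read from lists by function. Of the interferon ligands, 5 of 18 had a row in the table and none passed the filter, while the other 13 are not analysed here. Ifng, the type II interferon gene, was at 0.0513 to 0.529 CPM with the highest value in Bmal1WT replicate 4. Ifnk, the keratinocyte type I interferon, had 1 count in all, and Ifnz, Ifnl2 and Ifnl3 had 3, 3 and 2. Of 21 tested genes of nucleic acid sensing and 21 of the JAK-STAT relay, edgeR called 0, with 6 and 0 at an unadjusted p under 0.05, against 8.3% of all genes. Of those 6 sensing genes 2 were higher and 4 lower. The adaptor gene Mavs was at 34.9 ± 1.48 CPM in Bmal1WT, and in Bmal1cKO at 29.5 ± 1.71 CPM (SD, n = 4, -0.24 ± 0.06, adjusted p = 0.232, edgeR). Tank, a scaffold of the kinase TBK1, was at 39.4 ± 1.73 and 33.6 ± 2.25 CPM (-0.23 ± 0.06, adjusted p = 0.305, edgeR), and Rnaseh2b, a subunit of the RNase H2 enzyme, at 13.1 ± 0.667 and 16.9 ± 1.77 CPM (0.36 ± 0.08, adjusted p = 0.203 by edgeR and 0.0266 by DESeq2). In these 3 genes, named for the smallest p of their list, and in no other of the 21, the groups did not overlap, against 5.15% of all genes.

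Of 52 other interferon-induced genes tested, edgeR called 0, and the median log2 fold change was -0.03. An unadjusted p under 0.05 was found in 2 higher and 3 lower genes, against 8.3% of all genes. Bmal1WT replicate 2 was the highest library in 16 of the 52 (30.8%), against 17.8% of all genes. Ifi27l2a, a paralog of Ifi27, was at 2.44, 21.7, 4.28 and 4.65 CPM in Bmal1WT, and in Bmal1cKO at 1.24, 3.79, 2.58 and 2.82 CPM (-1.66 ± 0.65, adjusted p = 0.537, edgeR). Chosen after their values were seen, Apol9a, Apol9b, Oas1g and Slfn2 were 6.93, 6.09, 3.97 and 2.97 times the median of the other libraries there. With Ifi27l2a they are the 5 of 52 genes (9.62%) at 2-fold or more, against 1.08% of all genes. The median ratio of the list was 1.08, and Ifi207, Epsti1 and Ifi203 were at 0.106, 0.259 and 0.476. Trim30a, on chromosome 7, was at 1.01 ± 0.288 and 0.482 ± 0.211 CPM (SD, n = 4, -1.07 ± 0.34, adjusted p = 0.404, edgeR). Oas1b was at 5.52 ± 1.19 and 3.85 ± 0.551 CPM (-0.52 ± 0.17, adjusted p = 0.429, edgeR) and Slfn9 at 17.1 ± 1.24 and 25 ± 8.1 CPM (0.55 ± 0.2, adjusted p = 0.473, edgeR). In male libraries alone, 2 per group, the adjusted p of Slfn9 was 0.0473 (edgeR), where 101 genes were called over all genes tested. Of 28 interferon gamma and antigen presentation genes, 0 were called and 3 had an unadjusted p under 0.05, all higher, against 8.3% of all genes. Psmb8, an immunoproteasome subunit, was at 51.7 ± 4.48 and 59.9 ± 3.66 CPM (0.21 ± 0.07, adjusted p = 0.454, edgeR), and Tapbp, a peptide-loading chaperone, at 102 ± 5.81 and 112 ± 3.67 CPM (0.13 ± 0.05, adjusted p = 0.549, edgeR). Bmal1WT replicate 2 was highest in 5 of the 28 (17.9%), against 17.8% of all genes.

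Markers of other cells were read in the same libraries. The 8 Langerhans cell markers summed to 224 CPM in Bmal1WT replicate 2, the lowest of the 8 libraries, against 271 to 618 CPM in the others. Of these sums Epcam, at 104 to 132 CPM in all libraries, made up 126 CPM in Bmal1WT replicate 2. These sums followed sex: the 4 male libraries were at 224, 289, 271 and 406 CPM and the female ones at 521 to 618 CPM, and 4 of the 8 markers were called lower in male libraries by the sex term. The 8 listed T cell markers in the table summed to 98.1 CPM there, also the lowest value, with 103 to 180 CPM elsewhere. Thy1 made up 63.2 CPM of that sum, and the other 7 markers were each lowest in Bmal1cKO replicate 2, with Cd3e at 2.78 CPM there and 3.97 CPM in Bmal1WT replicate 2. Plasmacytoid dendritic cells are strong interferon producers, and of their 8 markers Siglech, Klk1 and Cox6a2 had 5, 2 and 1 counts in all. Their sum, 504 to 872 CPM and highest in Bmal1WT replicate 2, came mostly from Ly6d, and Bst2 is itself a member. Macrophage, monocyte and neutrophil markers summed to 15.2 CPM in that library and 14.1 to 32.3 CPM elsewhere. These sums also followed sex, with male libraries at 15.2, 14.1, 16.4 and 20.8 CPM and female ones at 29.7 to 32.3 CPM. Whether this is separate from the difference in Langerhans cell markers was not tested. In the macrophage, monocyte and neutrophil list, Csf1r made up 15.5 to 17.3 CPM of the female sums and 3.85 to 9.77 CPM of the male ones. Of this list Csf1r, Adgre1 and Cd68 were lowest in Bmal1WT replicate 2, at 3.85, 0.718 and 2.97 CPM. Lyz2 was lowest in Bmal1cKO replicate 2 and Itgam in Bmal1WT replicate 4. The sex term called Csf1r and Adgre1 lower in male libraries (adjusted p = 0.0143 and 0.0349, edgeR). Of the neutrophil genes in the list, Cxcr2 was at 1.67 CPM in Bmal1WT replicate 2 and at most 0.221 CPM in the others. S100a9 was highest in the same library at 0.974 CPM. S100a8 was highest in Bmal1WT replicate 4 at 0.904 CPM, against 0.487 CPM in Bmal1WT replicate 2, and Ly6g had 1 count in all. Keratinocyte markers summed to 36300 CPM in Bmal1WT replicate 2 and 24800 to 31100 CPM elsewhere. Krt1, picked after its values were seen, was at 6120 CPM there and 1280 to 4100 CPM in the others. It also followed sex, with means of 3990 CPM in male and 1660 CPM in female libraries (sex term, adjusted p = 0.0197, edgeR). Of the same list, Krt10 and Dsg1a were highest in that library too, and Trp63 was lowest there at 521 CPM. Krt5, Krt14, Lor and Ivl were highest in other libraries. Melanocyte, fibroblast and endothelial markers summed to 22.3, 76.6 and 0.641 CPM in Bmal1WT replicate 2, each inside the range of the other libraries. Single genes made up most of the melanocyte and fibroblast sums there, Mitf with 12.8 CPM and Sparc with 66.3 CPM. The part of these differences in the members' values was not tested.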

How the data were processed

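RNA-seq was analysed from 8 epidermal libraries, 4 per genotype. The authors deposited raw counts for each Ensembl gene; all values are whole numbers. The submitters' processing notes name featureCounts, STAR 2.7.10a, Trim Galore and the build GRCm38 (mm10). Not given in the sources used here are the annotation release, strandedness and the handling of multi-mapped reads. GENCODE M21 gave names for 33974 of 34070 identifiers.

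Groups come from the sample titles. The labels do not say that libraries come from separate animals, so p values reflect only library-to-library spread, which may be technical. The filter was edgeR's filterByExpr, with a minimum count of 10 and a minimum total of 15, and 19646 genes passed. The test was that of edgeR 4.0.16 under R 4.3.3 (TMM, quasi-likelihood F-test, two-sided, genotype as the only term), with Benjamini-Hochberg adjustment over all genes tested and calls at an adjusted p under 0.05. Standard errors are the fold change over the root of F, and 95% intervals use the moderated degrees of freedom. The script was tested on simulated data. Alternatives were DESeq2 1.42.0, limma voom 3.58.1, RLE factors, no filter, the replicate block, sex as a covariate, 1 sex alone and leaving out each library. Level per length is CPM over the union of GENCODE exons. The limit of 3 counts beside a count of 0 covers counting error only. At these depths a count of 1 is 0.0197 to 0.0281 CPM.

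Deviations from the group mean correlated between same-numbered libraries of the 2 groups across genes, at 0.327, 0.483, 0.388 and 0.365. These were over the 0.1 minimum set for pairing, and the replicate numbers were therefore used as a block. The sexes are matched by number as well, and different numbers of the same sex gave 0.146 to 0.345, also over that minimum. Pairing by number therefore cannot be told apart from shared sex by this rule. The members and lists were chosen with earlier results of these data known. All members are named, with values in every library for those of unadjusted p under 0.05, for the highest and the most different of each role and for members in which 1 library stands apart. Other pathway genes are named by the smallest unadjusted p of each list, apart from those said to be chosen after their values were seen or named by their ratio in Bmal1WT replicate 2.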

Additional observations from a re-analysis of the deposited data

Results flagged for a closer look

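Within groups of 4 libraries, a gap rule marked a value whose distance to its nearest neighbour was, as a share of the group's range, over the 95% critical value of Dixon's test. It was applied to the 37 members in both groups, 74 times in all, and chance marks about 1 in 20. It marked 9 values, and the members share their libraries, so these are not independent.

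In Bmal1WT, replicate 2 stood apart upward in Mx2 (4.21 CPM), Ifi44 (2.38 CPM), Oas3 (9.59 CPM) and Oasl1 (0.256 CPM). In Bmal1cKO, replicate 2 stood apart upward in Ifit1 (0.953 CPM), Eif2ak2 (30.8 CPM) and Ifi44 (0.335 CPM). Bmal1cKO replicate 1 stood apart downward in Zbp1 (0.233 CPM) and Irf7 (2.15 CPM).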

How the results depend on the processing

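All 16 alternatives called 0 of the 33 members. Over all genes, where the fit of all libraries without further terms called 34, DESeq2 called 246, the fit without a filter 71, the replicate block 152, sex as a covariate 119, female libraries alone 13 and male libraries alone 101. The cause was not tested. Leaving out a library gave 23 to 32. The median fold change of the members was -0.17 and ran from -0.24 to -0.05 when a library was left out, the latter without Bmal1WT replicate 2. It was -0.18 with the replicate block, and -0.04 in female and -0.31 in male libraries alone, of which only the male ones include Bmal1WT replicate 2. The replicate block, sex as a covariate and DESeq2 each called Bmal1 itself and no member. Fold changes kept their sign in all alternatives for 18 of the 33 members. Without the filter, Ifi44 had a log2 fold change of -2.47 ± 1.04 (edgeR unadjusted p = 0.0337, adjusted p = 0.752), and Ifit3, Rsad2 and Oasl1 had unadjusted p values of 0.48, 0.27 and 0.211. Ifit3, Rsad2, Ifi44 and Oasl1 rest on 17 to 136 counts over 8 libraries, which limits what could be seen of them.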
